A study of Mus musculus with 9 samples.

Results

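The nuclear genes that encode the subunits and assembly factors of respiratory complex I were followed in mouse fibroblasts transfected with a mimic or an inhibitor of miR-378-3p. The genes were taken by name, as every gene whose symbol in the platform annotation begins with Ndufa, Ndufb, Ndufc, Ndufs, Ndufv or Ndufaf and which has a probe set that names no other gene. That rule gave 43 genes of the 19938 that could be named on the array. They comprise 34 structural subunits, 7 assembly factors, and Ndufa4 with its relative Ndufa4l2. A probe set was tested where its gene's mean over the 9 arrays reached 3.857 on the log2 scale, the 40th percentile of all genes, and 40 of the 43 genes reached it. The remaining 3, Ndufs5, Ndufaf6 and Ndufa4l2, lay between 3.44 and 3.90 on every array and were not tested. Ndufb4 is named here only on probe sets shared with other genes, and Ndufb1 and Ndufaf8 carry no name in the platform table, so these 3 genes were not analysed here.

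Complex I (NADH:ubiquinone oxidoreductase) is the entry point of electrons from NADH into the mitochondrial respiratory chain. Its matrix arm carries the N module, where NADH is oxidised and electrons enter a chain of iron-sulphur clusters, and the Q module, where they reach ubiquinone. Its membrane arm pumps protons and is built from a proximal and a distal part around subunits encoded by mitochondrial DNA, while many small accessory subunits from nuclear genes surround the core. Assembly factors help to put these modules together and are not part of the finished enzyme. Ndufa4 keeps its complex I name but is now regarded as belonging to cytochrome c oxidase.

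NIH-3T3, an established mouse embryonic fibroblast line, was transfected using DharmaFECT 1 with 25 nM of 1 of 3 RNAs: a mimic of miR-378-3p, an inhibitor of it, or a RISC-free siRNA, a duplex that the silencing complex does not take up and which served as the control. Total RNA was taken 48 h later from 3 samples of each group, and each was read on 1 Affymetrix whole-transcript array. By its title, the study set out to find targets of miR-378-3p. The labels do not say that the triplicates were separate cultures, so the p-values reflect only how far these arrays differ, and that spread may be technical. No untransfected cells or separate inhibitor control are among the groups, and all 3 comparisons share arrays with each other.

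Array medians lay between 3.94 and 4.03 (log2), and with 3 arrays a group their number limits the precision. The arrays differed more in their upper quartiles. These lay between 5.642 and 5.648 in the controls, 5.547 and 5.664 with the mimic, and 5.672 and 5.759 with the inhibitor. The arrays of mimic replicate 3 and inhibitor replicate 1 lay farthest apart on the first principal component, which held 60.5% of the variance, at -20.5 and 20.9, against -4.38 to -2.78 for the controls. All 8 fibroblast markers were above the level filter, with a summed level between 13.3 and 13.5 in every group. Single markers did differ at an adjusted p under 0.05 in the test described below. Thy1 was higher with the mimic than with the control (log2 0.38), and Col3a1 was lower with the inhibitor (log2 -0.22). Between mimic and inhibitor, Col3a1, S100a4 and Thy1 were higher and Pdgfrb lower with the mimic. Markers of other cell types stood lower: 3 of 5 macrophage markers (Ptprc, Adgre1 and Lyz2), 2 of 4 epithelial (Epcam and Cdh1), 3 of 4 endothelial (Cdh5, Kdr and Tek) and 3 of 5 muscle markers (Myog, Myh3 and Des) were below the filter. The summed muscle markers, the actin gene Acta1 among them, lay between 6.52 and 6.64 in the controls. They lay between 6.62 and 6.72 with the mimic and 6.46 and 6.56 with the inhibitor. Acta1, 1 of the 2 muscle markers tested, was higher with the mimic than with the inhibitor (log2 0.28, limma adjusted p = 0.0242). The part of the muscle markers in the results was not tested. In bulk RNA, fewer cells of a kind and less RNA per cell cannot be told apart.

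Most complex I transcripts were lower in cells given the miR-378-3p inhibitor than in those given the control RNA, by small amounts. Of the 40 tested genes, 35 were lower and 5 higher with the inhibitor than with the control RNA, and the median difference was -0.12 on the log2 scale, against 0.01 over all 11963 genes tested. Of the 33 structural subunits among the 40, 30 were lower and 3 higher, with a median of -0.15. Using limma with Benjamini-Hochberg adjustment over all genes at 0.05, 7 of the 40 fell (Ndufa13, Ndufv3, Ndufa3, Ndufs8, Ndufc1, Ndufb6 and Ndufb11) and 2 rose (Ndufa9 and Ndufaf4). Over all genes tested, 3.76% fell and 11.1% rose in this comparison. Calls over the array were thus mainly rises, and calls among these genes mainly falls. Of all genes tested, 45.8% were below their control mean, against 87.5% of the 40. The 3 inhibitor arrays lay below all 3 control arrays for 20 of the 40 genes and above them for 2, where the shares over all genes tested were 12.8% and 24.9%. With the arrays' values quantile-normalised again over genes, 17 of the 40 fell and 2 rose, the 9 already named among them, and the calls over all genes became 1229 higher and 1166 lower in place of 1330 and 450. Leaving out control replicate 3, inhibitor replicate 1 or inhibitor replicate 3 left 5 of the 40 called in each case, and leaving out mimic replicate 3 left 13.

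The shift was alike on the 3 inhibitor arrays. Relative to each gene's control mean, the median over the 40 genes was -0.11, -0.11 and -0.13 on inhibitor arrays 1 to 3 (log2 differences), with 33, 31 and 33 genes below their control mean. On the mimic arrays it was 0.00, -0.02 and 0.00, and on the control arrays themselves 0.01, -0.03 and 0.02. The medians over all genes on the inhibitor arrays were 0.02, 0.01 and 0.02. The groups thus did not overlap in this median, which was lower on each inhibitor array than on any of the other 6.

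**Figure D1:**
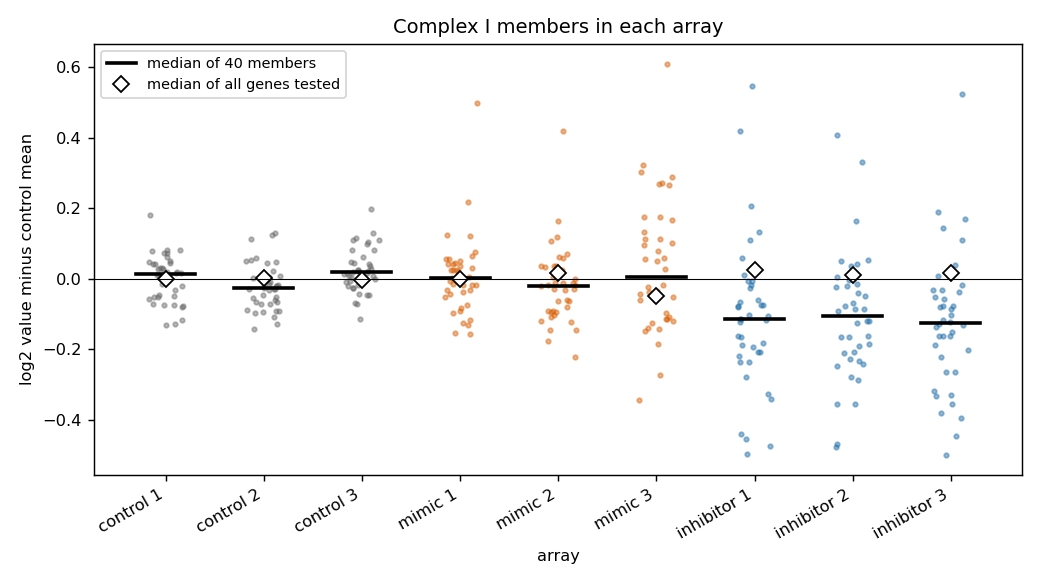
Log2 difference of each of the 40 tested complex I genes from its own control mean, on each of the 9 arrays; a point is 1 gene, the bar is the median over the 40 and the diamond the median over all genes tested. The inhibitor arrays have medians of -0.11 to -0.13, and the control and mimic arrays lie between -0.03 and 0.02.

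**Figure D2:**
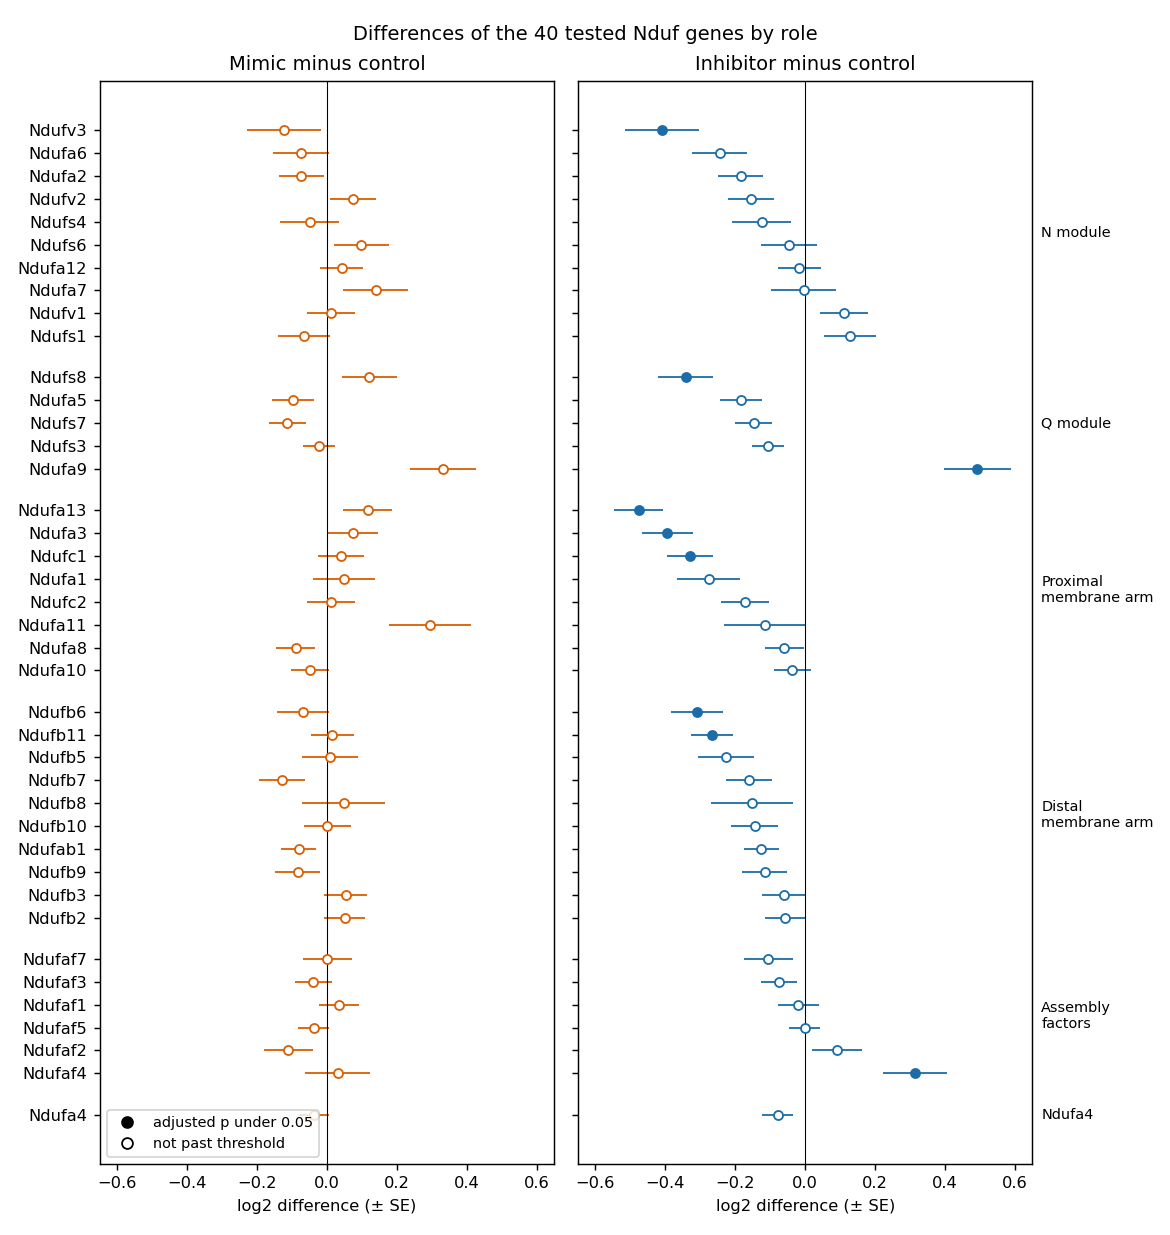
Log2 difference of each of the 40 tested genes, with its SE as a bar, grouped by place in the enzyme, for the mimic minus the control (left) and the inhibitor minus the control (right); filled points passed the adjusted threshold of 0.05. All 8 proximal and all 10 distal membrane-arm genes lie below 0 with the inhibitor, and no gene passed with the mimic.

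The promoters of 5 of these genes are shown because they are members called in opposite directions with the inhibitor, from the membrane arm (Ndufa13, Ndufa3 and Ndufb6, lower) and from the Q module and the assembly factors (Ndufa9 and Ndufaf4, higher). Each line gives the 250 bases before the RefSeq start site in build GRCm38.p6, on the gene's strand, and capitals mark matches on either strand to a motif of a factor known for nuclear respiratory genes.
Ndufa13: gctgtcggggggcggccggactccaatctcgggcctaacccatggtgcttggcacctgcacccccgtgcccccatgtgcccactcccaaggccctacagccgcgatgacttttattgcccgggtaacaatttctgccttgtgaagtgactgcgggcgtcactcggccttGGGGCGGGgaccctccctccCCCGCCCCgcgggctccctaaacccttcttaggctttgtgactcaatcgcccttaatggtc
Ndufa3: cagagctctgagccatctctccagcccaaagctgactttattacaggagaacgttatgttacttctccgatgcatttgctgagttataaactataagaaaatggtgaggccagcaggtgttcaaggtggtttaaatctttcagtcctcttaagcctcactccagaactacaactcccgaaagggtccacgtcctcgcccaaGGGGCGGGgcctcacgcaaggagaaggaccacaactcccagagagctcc
Ndufb6: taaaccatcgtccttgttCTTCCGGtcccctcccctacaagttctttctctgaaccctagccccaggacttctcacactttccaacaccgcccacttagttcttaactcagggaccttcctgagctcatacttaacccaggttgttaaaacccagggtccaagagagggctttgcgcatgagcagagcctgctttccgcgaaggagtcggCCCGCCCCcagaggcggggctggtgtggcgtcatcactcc
Ndufa9: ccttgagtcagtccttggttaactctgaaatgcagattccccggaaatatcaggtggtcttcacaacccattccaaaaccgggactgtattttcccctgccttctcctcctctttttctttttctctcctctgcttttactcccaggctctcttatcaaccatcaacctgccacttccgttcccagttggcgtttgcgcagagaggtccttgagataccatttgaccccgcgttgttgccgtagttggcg
Ndufaf4: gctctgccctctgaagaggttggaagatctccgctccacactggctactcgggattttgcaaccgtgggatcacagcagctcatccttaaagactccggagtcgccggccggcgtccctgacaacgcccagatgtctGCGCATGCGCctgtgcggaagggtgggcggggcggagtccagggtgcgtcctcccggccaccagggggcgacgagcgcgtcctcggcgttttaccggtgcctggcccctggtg
In these stretches the capitals are the SP-type motif GGGGCGGG at 81 and 61 bases before the start of Ndufa13 (chr8:69902021-69902270, minus strand), at 49 bases before that of Ndufa3 (chr7:3617123-3617372, plus strand) and at 40 bases before that of Ndufb6 (chr4:40279422-40279671, minus strand). Ndufb6 also holds the ETS-type motif CCGGAAG, which the factor GABP binds, at 232 bases. Ndufaf4 (chr4:24897833-24898082, plus strand) holds the NRF1 motif (GCGC, any base, then TGCGC) at 113 bases. No motif searched lies in the stretch shown for Ndufa9 (chr6:126849145-126849394, minus strand), and its YY1 motif AAGATGGCG lies 29 bases after the start, as does that of Ndufc1 at 22 bases. The other genes called lower are not shown. In the same 250 bases Ndufb11, Ndufc1 and Ndufs8 held no motif searched, and Ndufv3 held the SP motif at 140 bases.

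Over whole windows of 250 bases before to 50 after the start, which the RefSeq table held for 38 of the 43 genes, the NRF1 motif was in 8, the YY1 motif in 5, the ETS motif in 5, the SP motif in 9 and the ERR motif AAGGTCA in 2. Among all 27025 windows in the table, the shares holding them were 4.78%, 1.49%, 9.12%, 16.7% and 4.66% in the same order. The 5 YY1 matches, in Ndufa9, Ndufc1, Ndufs4, Ndufs6 and Ndufs7, all lay after the start site. Among the 9 genes called with the inhibitor, Ndufa13, Ndufa3, Ndufb6 and Ndufv3 held the SP motif, Ndufb6 and Ndufs8 the ETS motif, Ndufa9 and Ndufc1 the YY1 motif and Ndufaf4 the NRF1 motif. Ndufb11 held none of these motifs. A match is a description of letters and not a site of binding.

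The proximal part of the membrane arm had the lowest median with the inhibitor. Of its 8 tested genes 3 fell (37.5%, against 3.76% of all genes tested), 0 rose and all 8 were below their control mean. The median was -0.22 (log2) and the range -0.48 to -0.04. Ndufa13, a membrane-spanning accessory subunit also studied as a regulator of cell death, read 7.15, 7.05 and 7.23 (log2) in the controls, 7.16, 7.20 and 7.41 with the mimic, and 6.69, 6.67 and 6.64 with the inhibitor. Its inhibitor values were close together (6.67 ± 0.02, SD, n = 3) and all lay well below the controls (7.14 ± 0.09, SD, n = 3). The fall was 1.39-fold (log2 -0.48, SE 0.07, limma adjusted p = 0.00178). Ndufa3, a small accessory subunit with a single membrane span, read 7.28, 7.24 and 7.27 in the controls, 7.32, 7.25 and 7.44 with the mimic, and 6.77, 7.02 and 6.82 with the inhibitor. It fell 1.31-fold (log2 -0.39, SE 0.07, limma adjusted p = 0.00549), and the inhibitor arrays again lay apart from the other 6.

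Ndufc1, another small membrane subunit, read 7.32, 7.45 and 7.55 in the controls, 7.48, 7.47 and 7.50 with the mimic, and 7.20, 7.09 and 7.05 with the inhibitor. Its fall was 1.26-fold (log2 -0.33, SE 0.07, limma adjusted p = 0.00792), with no overlap between inhibitor and control. A further probe set for Ndufc1 alone gave -0.31 with the inhibitor (SE 0.07, limma adjusted p = 0.0409 over 21789 probe sets). Ndufa1, an X-linked accessory subunit needed for assembly, read 5.83, 5.82 and 5.86 in the controls, 5.82, 5.73 and 6.10 with the mimic, and 5.67, 5.56 and 5.46 with the inhibitor. Its difference of -0.28 (SE 0.09) missed the threshold at a limma adjusted p of 0.0665, although the groups did not overlap. Ndufc2, which pairs with Ndufc1 in the enzyme, differed by -0.17 (limma adjusted p = 0.128), also without overlap.

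Ndufa11, an accessory subunit of the membrane arm, did not separate inhibitor from control on the probe set used. It read 6.89, 7.01 and 6.99 in the controls, 7.18, 7.02 and 7.58 with the mimic, and 6.84, 6.95 and 6.76 with the inhibitor. The inhibitor and control values overlapped (log2 -0.11, SE 0.12, limma adjusted p = 0.589), and the mimic values were the widest spread of the 3 groups, with replicate 3 the highest. A further probe set for Ndufa11 alone gave -0.28 with the inhibitor (SE 0.17, limma adjusted p = 0.403 over 21789 probe sets). Ndufa8 and Ndufa10 differed from the control by -0.06 and -0.04 with the inhibitor, the smallest differences in the proximal arm, and their groups overlapped.

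In the distal part of the membrane arm, 2 of 10 genes fell (20%, against 3.76% of all genes tested) and 0 rose. All 10 were below their control mean, with a median of -0.15 (log2) and a range of -0.31 to -0.06. Ndufb6, an accessory subunit of this arm, read 8.43, 8.41 and 8.60 in the controls, 8.32, 8.37 and 8.54 with the mimic, and 8.26, 8.13 and 8.13 with the inhibitor. It fell 1.24-fold (log2 -0.31, SE 0.07, limma adjusted p = 0.019). Ndufb11, an X-linked accessory subunit, read 7.57, 7.67 and 7.63 in the controls, 7.53, 7.66 and 7.72 with the mimic, and 7.30, 7.42 and 7.36 with the inhibitor. Its fall was 1.20-fold (log2 -0.27, SE 0.06, limma adjusted p = 0.0158), and for both genes every inhibitor value lay below every control value. The call of Ndufb6 was lost without control replicate 3, inhibitor replicate 2 or inhibitor replicate 3 (adjusted p up to 0.0828). That of Ndufb11 was lost without control replicate 2, control replicate 3, inhibitor replicate 1 or inhibitor replicate 3 (adjusted p up to 0.0684).

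The other distal genes were lower by smaller amounts that missed the threshold. Ndufb5 differed by -0.23 (log2, limma adjusted p = 0.089), Ndufb10 by -0.14 (0.189 by the same test) and Ndufab1, the mitochondrial acyl carrier protein, by -0.13 (0.122), each without overlap between inhibitor and control arrays. Ndufb7, a subunit held together by disulphide bonds, read 7.28, 7.06 and 7.26 in the controls, 7.11, 7.06 and 7.06 with the mimic, and 6.97, 7.08 and 7.08 with the inhibitor. Its differences were -0.16 with the inhibitor (SE 0.07, limma adjusted p = 0.135) and -0.13 with the mimic (SE 0.07, limma adjusted p = 0.381), and its 3 groups overlapped. Without control replicate 2 the mimic difference was -0.20.

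The Q module held genes that moved in opposite directions. Of its 5 tested genes 1 fell, 1 rose and 4 were below their control mean with the inhibitor, with a median of -0.15 (log2). Over all genes tested, 3.76% fell and 11.1% rose. Ndufs8, a core subunit that carries iron-sulphur clusters, read 6.99, 6.87 and 6.97 in the controls, 7.00, 6.98 and 7.21 with the mimic, and 6.47, 6.65 and 6.68 with the inhibitor. It fell 1.27-fold (log2 -0.34, SE 0.08, limma adjusted p = 0.0159), a call lost without control replicate 1, control replicate 3 or inhibitor replicate 1 (adjusted p up to 0.0685). Ndufa9, an accessory subunit that binds a nucleotide near the ubiquinone site, read 7.52, 7.44 and 7.52 in the controls, 7.99, 7.91 and 7.57 with the mimic, and 8.04, 7.90 and 8.02 with the inhibitor. Every mimic and every inhibitor value lay above every control value. With the inhibitor the rise was 1.41-fold (log2 0.49, SE 0.10, limma adjusted p = 0.0071). Ndufs7 and Ndufs3, both core subunits of this module, and the accessory Ndufa5 differed by -0.15, -0.11 and -0.18 with the inhibitor. Their inhibitor and control arrays did not overlap, and their limma adjusted p-values were 0.0931, 0.157 and 0.0658.

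In the N module 1 of 10 genes fell with the inhibitor (10%, against 3.76% of all genes tested) and 0 rose. In all, 8 were below their control mean, with a median of -0.08 (log2) and a range of -0.41 to 0.13. Ndufv3, a small accessory subunit of the NADH-oxidising end, read 6.77, 6.53 and 6.48 in the controls, 6.66, 6.50 and 6.25 with the mimic, and 6.15, 6.12 and 6.27 with the inhibitor. It fell 1.33-fold (log2 -0.41, SE 0.11, limma adjusted p = 0.0272), and the spread of its controls was wide (SD 0.16, n = 3). Leaving out control replicate 1 or 2 or any inhibitor array ended the call (adjusted p up to 0.109), as did centring each array on its median (0.0509) or testing without the level filter (0.0594).

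Ndufv2, the core subunit with the iron-sulphur cluster beside the NADH site, read 7.92, 7.97 and 8.10 in the controls, 8.02, 8.03 and 8.16 with the mimic, and 7.88, 7.75 and 7.89 with the inhibitor. Its difference of -0.15 with the inhibitor did not pass (limma adjusted p = 0.154), although the groups did not overlap. The catalytic partners of Ndufv2 lay on the other side: Ndufv1, which binds NADH, differed by 0.11 (limma adjusted p = 0.337), and Ndufs1, the largest core subunit of the module, by 0.13 (limma adjusted p = 0.295). Their inhibitor and control values overlapped. Ndufa6 differed by -0.24 (limma adjusted p = 0.0643) and Ndufa2 by -0.18 (0.0808 by the same test), both without overlap.

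**Figure D3:**
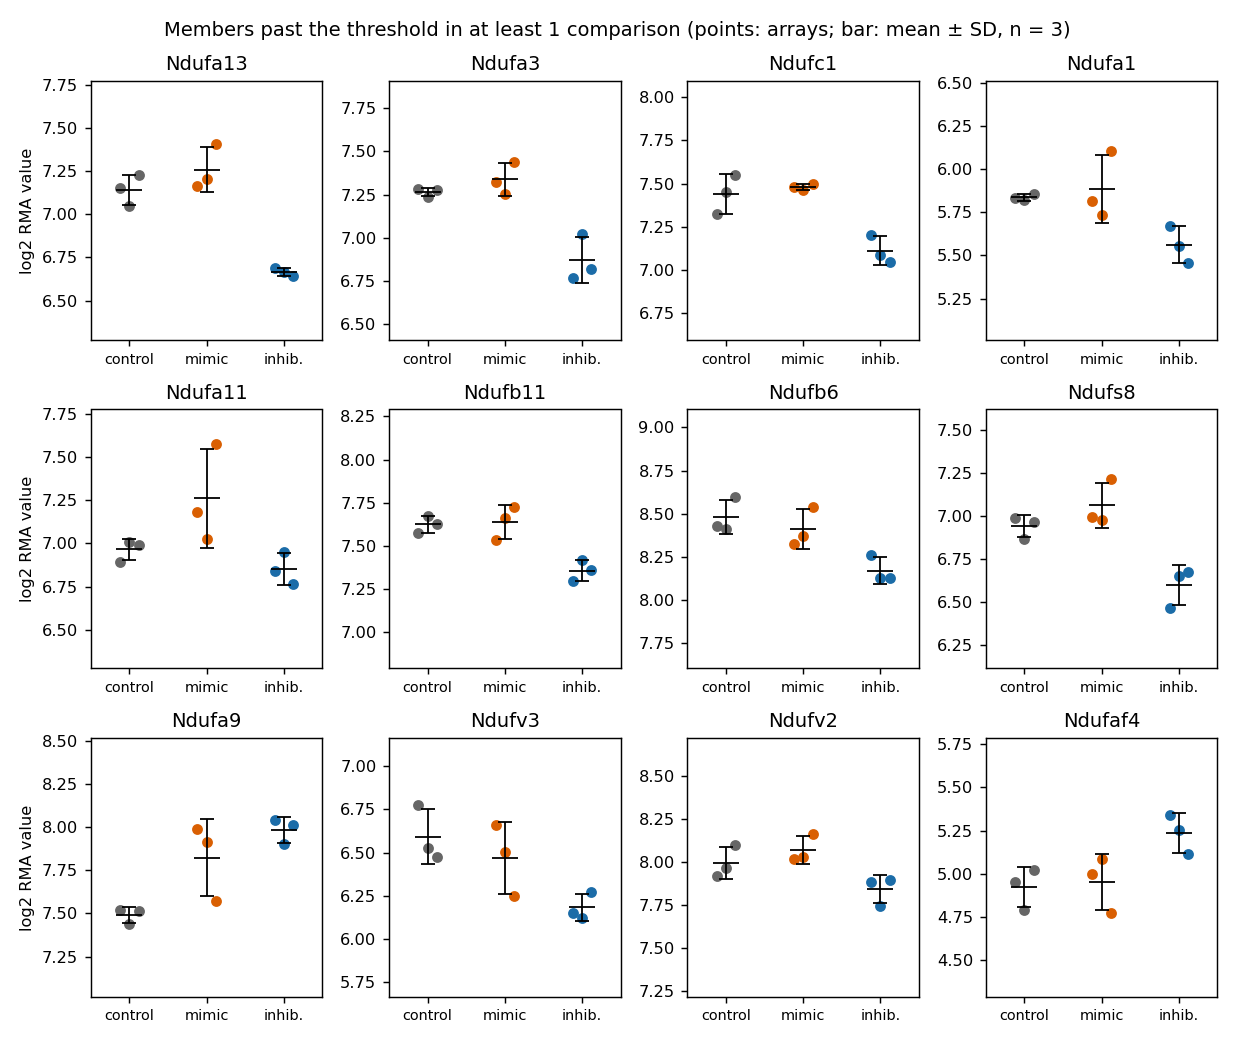
Log2 RMA value on each of the 9 arrays for the 12 complex I genes called in at least 1 comparison; points are arrays and bars the mean ± SD (n = 3). All panels span the same range of log2 units, but levels are not comparable between genes because each has its own probes. Ndufa13 shows tight inhibitor values of 6.64 to 6.69 below controls of 7.05 to 7.23, and Ndufa9 shows mimic and inhibitor values above the controls.

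Among the 6 assembly factors tested, 0 fell and 1 rose with the inhibitor and 4 were below their control mean. The 1 rise is 16.7% of them, near the 11.1% of all genes tested that rose. Below the control mean were 66.7% of them and 45.8% of all genes tested. The median of the 6 factors, -0.01 (log2), turned to 0.00 with its sign changed when each array was centred on its median. Ndufaf4, which acts early in assembly together with Ndufaf3, read 4.95, 4.79 and 5.02 in the controls, 5.00, 5.09 and 4.77 with the mimic, and 5.34, 5.25 and 5.11 with the inhibitor. It rose 1.24-fold (log2 0.31, SE 0.09, limma adjusted p = 0.0454), and no inhibitor value lay within the range of the other groups. This call was lost without any 1 of the 3 controls, any 1 of the 3 inhibitor arrays or mimic replicate 1 (adjusted p up to 0.166), after centring (0.0717), and without the level filter (0.0857). Ndufaf2 differed by 0.09 and Ndufaf1, Ndufaf3, Ndufaf5 and Ndufaf7 by -0.10 to 0.00, with limma adjusted p-values of 0.369 to 0.987 for these 5. Whether the assembly factors differ as a group from the structural subunits was not tested.

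Ndufa4, the subunit of cytochrome c oxidase that shares the naming, read 9.88, 9.92 and 9.89 in the controls, 9.85, 9.87 and 9.86 with the mimic, and 9.83, 9.78 and 9.84 with the inhibitor. Its differences of -0.08 with the inhibitor (limma adjusted p = 0.274) and -0.04 with the mimic (limma adjusted p = 0.757) did not pass, although the values of the 3 groups did not overlap.

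With the mimic, none of the 40 genes passed the test against the control (0 by limma with adjustment, and 2 at an unadjusted p under 0.05, Ndufa9 and Ndufa11), whereas 1.1% of all genes tested rose and 2.45% fell. There were 18 genes below and 22 above their control mean, and the median of 0.00 (log2) took the opposite sign after median centring. The mimic arrays lay above all controls for 2 genes and below them for 2, where the shares over all genes were 8.67% and 12.7%. Of the 40 differences, 38 lay within 0.15 of 0 on the log2 scale. Across the 40 genes the 95% confidence intervals reached from -0.36 to 0.55, with SEs of 0.04 to 0.12. Over all genes the calls were 132 higher and 293 lower, and 369 and 467 after quantile normalisation.

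The 2 genes with the largest differences with the mimic were both higher. Ndufa9 was 1.26-fold higher (log2 0.33, SE 0.10, 95% confidence interval 0.12 to 0.54, limma adjusted p = 0.0967), with replicates 1 and 2 at 7.99 and 7.91 and replicate 3 at 7.57. Without mimic replicate 3 the difference was 0.46 and passed (limma adjusted p = 0.00227), and it also passed after quantile normalisation at 0.36 (0.00602 by the same test). Ndufa11 differed by 0.29 (SE 0.12, 95% confidence interval 0.03 to 0.55, limma adjusted p = 0.244), with replicate 3 the highest of its 9 values, and by 0.14 without that replicate. Ndufa7, an accessory subunit of the N module, read 4.59, 4.61 and 4.66 in the controls, 4.66, 4.69 and 4.93 with the mimic, and 4.41, 4.67 and 4.76 with the inhibitor. Its mimic difference of 0.14 (SE 0.09, limma adjusted p = 0.539) was 0.06 without mimic replicate 3. Ndufv3 differed by -0.12 (SE 0.11, limma adjusted p = 0.654), and by -0.01 without mimic replicate 3, -0.22 without mimic replicate 1 and -0.03 without control replicate 1.

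Set directly against each other, mimic and inhibitor separated 10 of the 40 genes. With the mimic, 9 were higher (Ndufa13, Ndufa3, Ndufs8, Ndufa11, Ndufc1, Ndufa1, Ndufb11, Ndufb6 and Ndufv2) and 1 was lower (Ndufaf4), where 6.91% of all genes tested were higher and 19.9% lower. There were 32 genes above and 8 below 0, with a median of 0.11 (log2) against -0.02 over all genes. The mimic arrays lay above all inhibitor arrays for 13 of the 40 genes and below them for 3, and the shares over all genes were 12.9% and 25.7%. After quantile normalisation 18 of the 40 were higher and 0 lower, and the calls over all genes became 1827 higher and 1946 lower in place of 827 and 2377. Fitting only the 6 arrays of these groups left 6 of the 40.

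The proximal membrane arm again had the largest median, 0.35 (log2), with 5 of its 8 genes higher and 0 lower with the mimic. The 5 are 62.5% of its genes, against 6.91% of all genes tested. Ndufa13 was 1.51-fold higher with the mimic than with the inhibitor (log2 0.59, limma adjusted p = 0.000287) and Ndufa3 1.38-fold (log2 0.47, 0.00121). Ndufc1 was 1.29-fold higher (log2 0.37, 0.0024), Ndufa1 1.25-fold (log2 0.32, 0.0223) and Ndufa11 1.33-fold (log2 0.41, 0.026), each p adjusted in the same limma fit. The calls of Ndufa1 and Ndufa11 were lost when only the 6 arrays were fitted (0.0662 and 0.07) or an inhibitor array was left out: replicate 2 or 3 for Ndufa1 and replicate 1 or 3 for Ndufa11. Without the level filter that of Ndufa11 was lost too (0.0592). Without mimic replicate 3 both calls held, with smaller differences of 0.21 for Ndufa1 and 0.25 for Ndufa11 (limma adjusted p = 0.0334 and 0.0251).

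Elsewhere in the enzyme, Ndufs8 of the Q module was 1.38-fold higher with the mimic than with the inhibitor (log2 0.46, limma adjusted p = 0.00193) and the distal Ndufb11 1.22-fold (log2 0.28, 0.00676). Ndufb6 was 1.18-fold higher (log2 0.24, 0.0348) and Ndufv2 1.17-fold (log2 0.23, 0.0281). The call of Ndufb6 was lost without control replicate 1, mimic replicate 3, inhibitor replicate 2 or inhibitor replicate 3 (adjusted p up to 0.111), and that of Ndufv2 without mimic replicate 3 or inhibitor replicate 2 (up to 0.0899), and both were lost after median centring (0.0717 and 0.0566). Ndufaf4 was lower by 0.28 (log2, limma adjusted p = 0.0443), which did not pass without control replicate 1 or 3, mimic replicate 1 or 3 or inhibitor replicate 1 or 2 (up to 0.153), after quantile normalisation (0.0619) or centring (0.0591), without the level filter (0.0825) or with only the 6 arrays (0.0774). Without both mimic replicate 3 and inhibitor replicate 1 the difference was -0.14 (0.251). Ndufa9, higher than the control with both RNAs, did not differ detectably between them (log2 -0.16, limma adjusted p = 0.244, 95% confidence interval -0.37 to 0.05). Ndufv3 was higher with the mimic by 0.29, with overlapping groups (limma adjusted p = 0.0713).

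**Figure D4:**
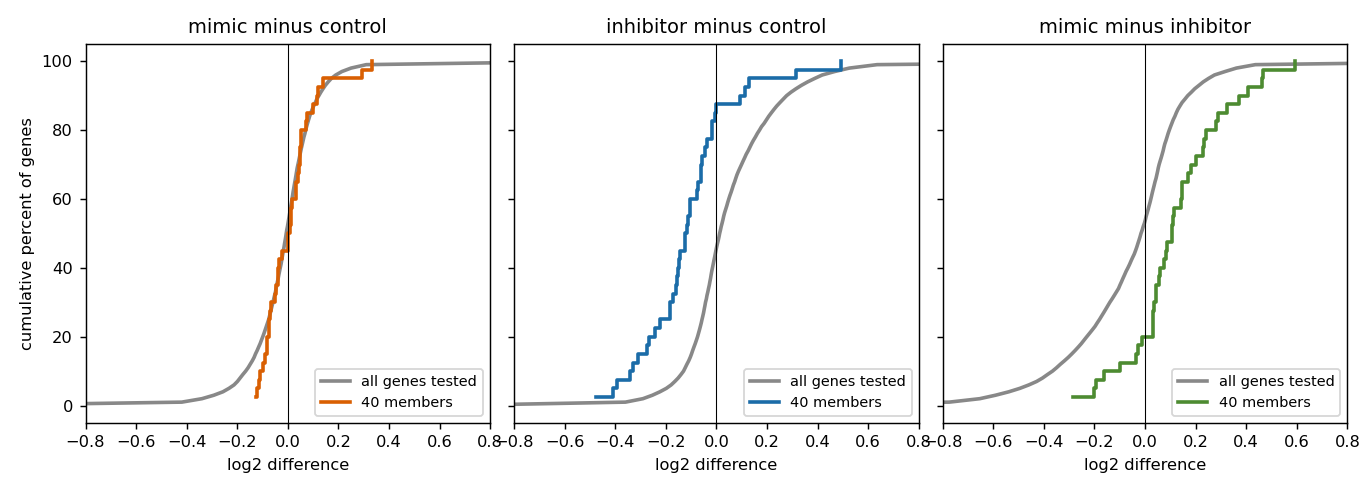
Cumulative share of genes against the log2 difference, for the 40 complex I genes and for all 11963 genes tested, in each of the 3 comparisons. With the inhibitor against the control the curve of the complex I genes lies to the left, with medians of -0.12 and 0.01, and with the mimic against the control the medians are 0.00 and -0.01.

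Other genes of the pathway were read from lists beside these. Complex I also has subunits from mitochondrial DNA, of which only ND3 was on a single-gene probe set. It read 10.39, 10.45 and 10.58 (log2) in the controls, 10.53, 10.43 and 10.63 with the mimic, and 10.31, 10.38 and 10.21 with the inhibitor. ND3 differed by -0.17 with the inhibitor (limma adjusted p = 0.147) and by 0.23 between mimic and inhibitor (limma adjusted p = 0.0405). The latter was lost without control replicate 2, mimic replicate 1, mimic replicate 3, inhibitor replicate 1 or inhibitor replicate 3 (adjusted p up to 0.145), after either scaling, and without the level filter.

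Of 11 tested assembly factors with other names, 0 passed with the inhibitor against the control (limma, with 1 lower and 1 higher at an unadjusted p under 0.05). Over all genes tested, 11.1% rose and 3.76% fell in this comparison. The median of the 11 factors was 0.04 (log2) and turned to -0.01 after quantile normalisation. Chchd4, which brings cysteine-rich proteins into the intermembrane space, read 4.30, 4.54 and 4.41 in the controls, 4.34, 4.33 and 4.23 with the mimic, and 4.93, 4.53 and 4.62 with the inhibitor. It was lower with the mimic than with the inhibitor by 0.39 (limma adjusted p = 0.0153), and its inhibitor and control values overlapped (log2 0.27, limma adjusted p = 0.0955). Chchd4 was the 1 gene of the 11 called between mimic and inhibitor (9.09%), where 19.9% of all genes tested were lower.

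Iron-sulphur clusters, which Ndufs8 and Ndufv2 carry, are made by a separate mitochondrial machinery. Of 13 tested genes of that machinery, 2 rose and 0 fell with the inhibitor (15.4% and 0%, against 11.1% and 3.76% of all genes tested), with a median of -0.08 (log2). Hspa9, the mitochondrial chaperone that hands over clusters, read 9.37, 9.34 and 9.31 in the controls, 9.27, 9.37 and 9.05 with the mimic, and 9.74, 9.67 and 9.78 with the inhibitor. It rose 1.31-fold (log2 0.39, SE 0.08, limma adjusted p = 0.0071). Slc25a37, an iron importer of the inner membrane, read 4.98, 4.92 and 4.95, then 4.88, 4.81 and 4.98, then 5.25, 5.19 and 5.17 in the same order of groups and rose by 0.25 (SE 0.05, limma adjusted p = 0.0113). Both genes had inhibitor values above all other arrays.

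Between mimic and inhibitor 3 of these 13 were lower with the mimic, Hspa9 by 0.50, Slc25a37 by 0.31 and its relative Slc25a28 by 0.20 (log2, limma adjusted p = 0.00107, 0.00216 and 0.0338). That is 23.1% of the list, near the 19.9% of all genes tested that were lower in this comparison. The electron carrier Fdx1 was the 1 gene that was higher (log2 0.41, limma adjusted p = 0.00383). Fdx1 read 6.90, 7.01 and 6.89 in the controls, 7.04, 7.14 and 7.07 with the mimic, and 6.48, 6.73 and 6.81 with the inhibitor, with no overlap between any of the groups. The call of Slc25a28 was lost after quantile normalisation (0.139), with only the 6 arrays of the comparison (0.0672), and without control replicate 2, mimic replicate 3 or any 1 of the 3 inhibitor arrays (up to 0.11).

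Of 15 tested genes listed for the expression of respiratory genes, 5 rose and 0 fell with the inhibitor, where 11.1% of all genes tested rose. There were 14 above their control mean, with a median of 0.18 (log2). After quantile normalisation 3 of the 5 passed (Gabpb1, Lrpprc and Pprc1) and the median was 0.07. Pprc1, a coactivator of nuclear respiratory genes, read 6.05, 6.14 and 6.01 in the controls, 5.96, 6.04 and 5.93 with the mimic, and 6.60, 6.46 and 6.45 with the inhibitor, a rise of 0.43 (SE 0.06, limma adjusted p = 0.00118). Lrpprc, which binds and stabilises mitochondrial messenger RNAs, read 7.70, 7.60 and 7.67 in the controls, 7.50, 7.59 and 7.25 with the mimic, and 8.18, 8.08 and 8.04 with the inhibitor, a rise of 0.44 (SE 0.08, limma adjusted p = 0.00574). For both genes the inhibitor values lay above all the others.

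Gabpb1, a subunit of the ETS-type factor GABP, read 5.79, 5.81 and 5.85 in the controls, 5.76, 5.81 and 5.39 with the mimic, and 6.47, 6.10 and 6.31 with the inhibitor (log2 difference 0.47, SE 0.11, limma adjusted p = 0.0193). Yy1, the factor of the YY1 motif, read 7.25, 7.21 and 7.21, then 7.06, 7.06 and 6.92, then 7.46, 7.49 and 7.43 in the same order (0.23, SE 0.05, limma adjusted p = 0.0141). Nrf1, the factor of the NRF1 motif, read 5.58, 5.49 and 5.47, then 5.53, 5.57 and 5.40, then 5.71, 5.69 and 5.78 (0.22, SE 0.06, limma adjusted p = 0.0323). All 3 genes had inhibitor values above every control and mimic value. The calls of Yy1 and Nrf1 were lost after quantile normalisation (0.0863 and 0.0543), and leaving out an array ended that of Gabpb1 for 5 of 9 arrays (any control, inhibitor replicate 1 or 3; up to 0.076), that of Nrf1 for 5 (control replicate 2 or 3, mimic replicate 1, inhibitor replicate 1 or 3; up to 0.12) and that of Yy1 for control replicate 2 or 3 (up to 0.0568).

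With the mimic against the control 0 of the 15 passed (limma, 2 lower at an unadjusted p under 0.05), and their median was -0.09 (log2). Yy1 came closest, at -0.21 (limma adjusted p = 0.0539), with every mimic value below every control value, and Lrpprc differed by the same -0.21 (0.225 by the same test), also without overlap. Against the inhibitor, 5 of the 15 were lower with the mimic (33.3%), where 19.9% of all genes tested were lower. These were the 5 that rose with the inhibitor, whose arrays both comparisons share. Their mimic minus inhibitor differences ran from -0.23 for Nrf1 to -0.65 for Lrpprc. The call of Nrf1 there was lost after quantile normalisation (limma adjusted p = 0.0679) or without inhibitor replicate 3 (0.062).

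**Figure D5:**
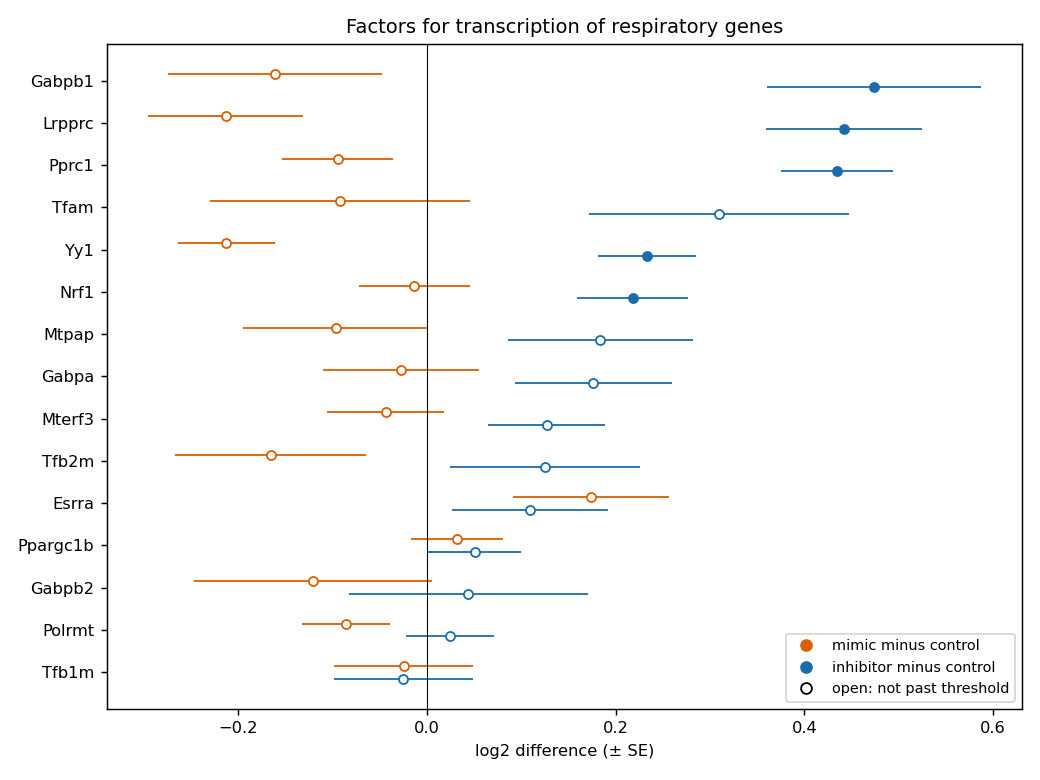
Log2 difference from the control, with its SE as a bar, of the 15 tested genes listed for the expression of respiratory genes, for the mimic and for the inhibitor; filled points passed the adjusted threshold of 0.05. With the inhibitor 14 of 15 lie above 0 and 5 passed, and with the mimic none passed.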

How the data were processed

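Each of the 9 samples was read on 1 array. The authors deposited log2 values per probe set, which the submitters' processing notes place under RMA and Partek 6.5; the build and annotation used are not given in the sources used here. Of 28853 probe sets, all with a value on every array, 21789 name 1 gene, 1621 several and 5443 none in the platform annotation, and only the first were used, with the probe set of highest mean for each of 19938 genes. All 43 gene identifiers matched RefSeq with unchanged symbols. Genes whose mean reached the 40th percentile were fitted together with limma 3.58.1 in R 4.3.3, with 1 coefficient per group, moderated variances and Benjamini-Hochberg adjustment over 11963 genes at 0.05. The residual SD had a median of 0.0803. Called genes, the 5 largest differences in each comparison and called genes of the other lists are named. The script was tested on simulated data. The members and lists were chosen with earlier results of these data known. Alternatives changed the level filter, scaling, prior, probe-set rule, arrays fitted and a replicate block. Same-numbered arrays were not treated as pairs in the main fit, because the labels do not say that they share a batch. Of 9 such pairs 5 correlated above 0.1, and the lowest was -0.59.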

Additional observations from a re-analysis of the deposited data

Results flagged for a closer look

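Probe sets other than those used for the 43 genes were read separately, in a limma fit over all 21789 single-gene probe sets, and 3 of their differences passed at an adjusted p of 0.05. The other probe set of Ndufc1 was lower with the inhibitor than with the control by 0.31 (log2 difference -0.31, adjusted p = 0.0409) and higher with the mimic than with the inhibitor by 0.37 (adjusted p = 0.0112). The other probe set of Ndufb11 was higher with the mimic than with the inhibitor by 0.38 (adjusted p = 0.0342), and its difference between inhibitor and control, -0.26, did not pass (adjusted p = 0.173).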

How the results depend on the processing

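Among the genes named, 659 re-computed values kept their direction and side of the threshold, 93 kept their direction and lost the call, 3 gained it and 0 changed direction. The count of complex I genes called was 19 with the inhibitor and 18 between mimic and inhibitor after quantile normalisation, in place of 9 and 10, and their medians were -0.21 and 0.20 (log2) in place of -0.12 and 0.11. Between mimic and inhibitor the median was 0.084 after median centring and 0.074 without mimic replicate 3 and inhibitor replicate 1, and 6 genes were called with only the 6 arrays compared. With the mimic against the control, 1 gene was called after quantile normalisation, and 1 without mimic replicate 3 and inhibitor replicate 1, where the median was -0.014. Leaving out each array in turn gave 0 to 1 genes called with the mimic, 5 to 13 with the inhibitor and 7 to 12 between them, with medians from -0.019 to 0.019, -0.12 to -0.10 and 0.071 to 0.12. With the replicate number as a block, 8 genes were called with the inhibitor, 9 between mimic and inhibitor and 0 with the mimic. The replicate block ended the inhibitor calls of Ndufaf4 (adjusted p = 0.0597) and Nrf1 (0.0582) and, between mimic and inhibitor, those of Ndufaf4 (0.0548) and ND3 (0.0634). The called genes over the whole array with the mimic fell from 425 to 289. The labels do not say whether equal numbers mark a shared batch, and 2 of 9 arrays correlated best with their own number. The cause of these changes was not tested. With 3 arrays a group, signal near the level filter limits what can be read for Ndufs5, Ndufaf6 and Ndufa4l2.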
